A study of Homo sapiens with 6 samples.

Results

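The genes described here are BCL2L2 and the 4 other classical anti-apoptotic genes of the BCL2 family, BCL2L1, MCL1, BCL2 and BCL2A1. They are 5 of the 57905 entries of the gene table and were matched by gene symbol, and 5 of 5 passed the filter on low counts that left 15343 genes for testing. BCL2L2 was chosen on its measured value, a lower count after INO80 siRNA in these same libraries, so its difference between the groups is given as a description with no test. The other 4 were chosen by name, as its family.

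The libraries were made from HK-2 (Human Kidney-2) cells, an immortalised human renal proximal tubular line labelled as wild type. The 3 samples of the control group came from cells given control siRNA, a non-targeting pool, and the 3 of the INO80 siRNA group from cells given a pool of siRNAs against INO80, the ATPase of a chromatin remodelling complex. All 6 were transfected with the reagent RNAiMAX and harvested after 48 h, and no group was left untransfected. Since both reagents are pools in 1 cell line, the effect of a single siRNA or of another line was not measured.

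Proteins of the BCL2 family decide whether the outer mitochondrial membrane is opened. The effectors BAX and BAK1 form pores in it that release cytochrome c, which starts caspase activation. The anti-apoptotic members hold the effectors and their activators, the BH3-only proteins, in inactive complexes, and each binds a different range of BH3-only proteins: MCL1 and BCL2A1 bind PMAIP1 (NOXA), whereas BCL2, BCL2L1 (BCL-XL) and BCL2L2 (BCL-W) bind BAD. In epithelial cells, loss of an anti-apoptotic member can lower the threshold for apoptosis, and tubular cells are a classical setting of such cell death. These are statements of background and not results of these libraries.

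Total gene counts ranged from 16829273 to 20311588 under control siRNA and from 20678008 to 23784599 under INO80 siRNA. The targeted gene INO80 fell from 49.9 ± 3.89 to 13.3 ± 1.12 CPM (counts scaled to a common library size; mean ± SD, n = 3 in each group), a log2 fold change of -1.90 (SE 0.0956, adjusted p = 0.000161 in edgeR's quasi-likelihood test). Both replicate 1 libraries stood apart from the others: on the first principal component, with 41.8% of the variance, they lay at -31.5 and -28.8 and the other 4 between 13.8 and 15.8. Deviations from the group means were shared between libraries of equal replicate number. The fit with that number as a block is therefore given as well wherever it changes a call. The members are also given without both replicate 1 libraries. With the block, both the fit on all 6 libraries and that smaller fit hold little information on each gene's own spread, the smaller fit least. The blocked p-values therefore lean on the spread pooled over genes and can be too small. Of the proximal tubule markers, 2 of 8 (GGT1 and MME) were at 1 FPKM (fragments scaled to exon length and library size) or more in all libraries. AQP1, LRP2, CUBN, SLC34A1, SLC22A6 and ANPEP were at 0.2 FPKM or less. The list's sum ranged from 34.3 to 43.2 under control siRNA and from 37.6 to 45.6 under INO80 siRNA. Most of this sum was GGT1, at 31.4 to 43.7 FPKM over all libraries, against 1.65 to 2.71 for MME. The epithelial keratins KRT8, KRT18 and KRT19 and EPCAM were detected in all libraries, and CDH1 was at 0.08 FPKM or less. Of markers of other cell types, the leukocyte gene PTPRC had 0 counts in all 6 libraries, PDGFRB was at 0.14 FPKM or less and COL1A1 ranged from 4.06 to 6.03 FPKM. PECAM1 was not analysed here.

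BCL2L2 encodes BCL-W, an anti-apoptotic protein of the outer mitochondrial membrane. The gene (ENSG00000129473) lies at chr14:23767999-23780968 on the plus strand of GRCh37. It had 656, 767 and 758 counts under control siRNA and 435, 412 and 494 counts under INO80 siRNA. In CPM these were 40.0, 37.5 and 39.2 against 21.6, 17.1 and 20.4, so the groups did not overlap. Over all genes tested, 11.5% were lower without overlap, and BCL2L2 was chosen for a lower count in these same libraries. Its means were 38.9 ± 1.26 and 19.7 ± 2.37 CPM (SD, n = 3), a ratio of 0.506. The fitted log2 fold change was -0.98 (SE 0.0984, which takes no account of the choice of the gene on this contrast). In the replicate pairs it was -0.89, -1.14 and -0.94. Without both replicate 1 libraries it was -1.04. The control libraries varied by 3.23% (SD over mean), close to the 3.72% that counting error alone gives at this depth, and the INO80 siRNA libraries by 12.02%, above their counting error of 4.74%. In bulk RNA, fewer cells that express a gene and less RNA per cell cannot be told apart.

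**Figure D1:**
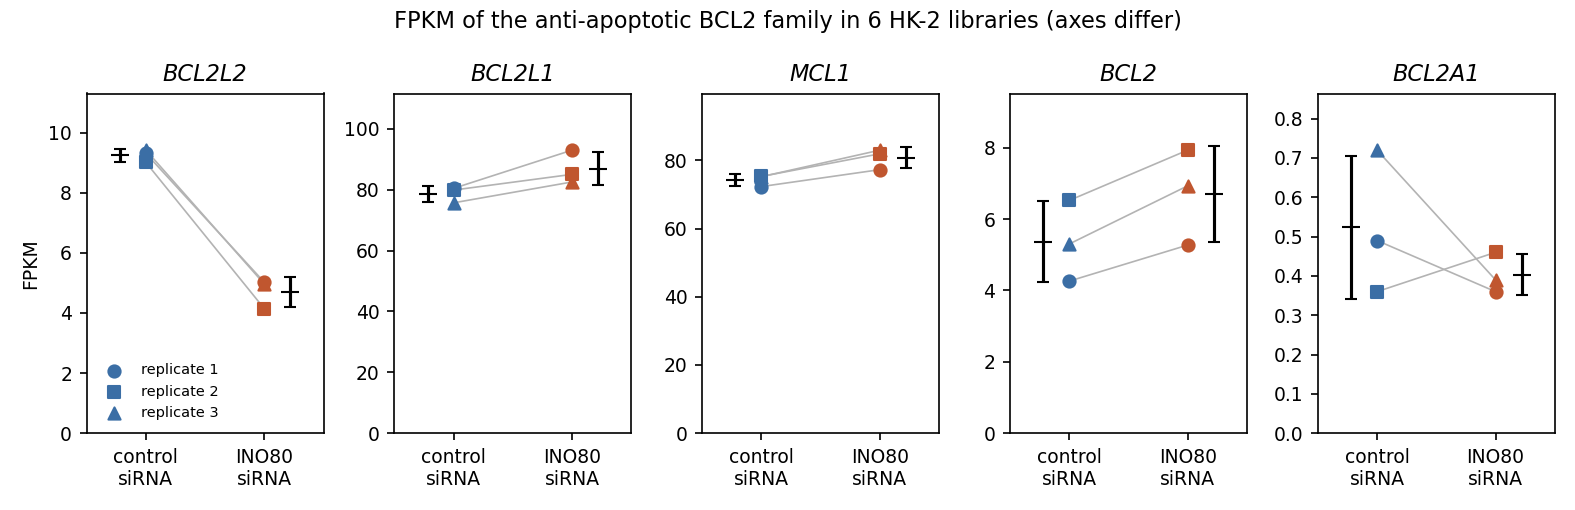
Deposited FPKM of the 5 members (one panel each, vertical axes from 0 and of different height) in the 3 control siRNA (blue) and 3 INO80 siRNA (orange) libraries. Marker shapes give the replicate number, grey lines join libraries of the same number, and black bars show the mean and SD. BCL2L2 lies at 9.01 to 9.42 FPKM under control siRNA and at 4.14 to 5.02 under INO80 siRNA, and the lines of BCL2 run side by side upward from different starting levels.

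The BCL2L2 locus holds other entries whose reads could be mixed with its own. The read-through entry BCL2L2-PABPN1 (ENSG00000258643, chr14:23776044-23794578, plus strand, GRCh37) joins the first exons of BCL2L2 to those of PABPN1, the nuclear poly(A)-binding protein gene downstream. In the GENCODE v44 annotation (GRCh38), exons 1 to 3 of the canonical transcript BCL2L2-201, 590 of its 3526 bases (16.7%), are all shared with the read-through, and exon 4, at chr14:23308816-23311751 with 2936 bases (83.3%), is not. The junctions at which the transcripts part are shown because they mark where BCL2L2 and the read-through differ after the shared exons. A read that lies wholly in exon 4 belongs to BCL2L2 and not to the read-through, and one that lies wholly in exons 1 to 3 is common to both. Each shows the last 15 bases of exon 3, ending at chr14 position 23308199 of GRCh38 on the plus strand, in lower case, and the first 15 bases of the next exon, in capitals.
BCL2L2-201: agcagtgggggctggGCGGAGTTCACAGCT
BCL2L2-PABPN1-201: agcagtgggggctggGAGCTGGAAGCTATC
BCL2L2-PABPN1-203: agcagtgggggctggTTATCCCAGATCACT
The next exon starts at 23308816 in BCL2L2-201, at 23322181 in BCL2L2-PABPN1-201 and at 23319735 in BCL2L2-PABPN1-203. Junction reads were not analysed here, since the table holds 1 count per gene.

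The read-through entry had 7, 23 and 31 counts under control siRNA and 13, 16 and 15 under INO80 siRNA, between 1.06% and 3.93% of the counts of both entries together. Control replicate 1 was the lowest of all 6 and the groups overlapped, with a log2 fold change of -0.73 (SE 0.442, edgeR adjusted p = 0.467). With its counts added to BCL2L2 before the fit, the BCL2L2 log2 fold change stayed at -0.98. PABPN1, on the same strand downstream, had 1769, 2036 and 2084 counts against 2171, 2603 and 2719 (log2 fold change 0.06, SE 0.0582, adjusted p = 0.690). BCL2L2 therefore had 37.1, 37.7 and 36.4 counts for every 100 PABPN1 counts under control siRNA. Under INO80 siRNA it had 20.0, 15.8 and 18.2. These ratios rest on the same BCL2L2 counts on which the gene was chosen, so they are no separate support. Reads shared by overlapping entries may have been dropped or split by the counting, whose setting is not given in the sources used here.

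HOMEZ and PPP1R3E overlap BCL2L2 on the minus strand, and 386 of the 4840 bases in all annotated BCL2L2 exons lie over exons of these minus-strand genes. HOMEZ, a homeobox and leucine zipper gene, had 290, 323 and 303 counts against 375, 520 and 428 (log2 fold change 0.24, SE 0.107, adjusted p = 0.325, with the replicate block 0.0392). PPP1R3E, a regulatory subunit gene of protein phosphatase 1, had 88, 132 and 114 counts against 108, 128 and 153 (-0.06, SE 0.148, adjusted p = 0.882). Within 50 kb of BCL2L2 the table lists 11 entries, of which 5 were tested. In edgeR 0 of the 5 passed the test, 0 had an unadjusted p under 0.05 and 0 were called by DESeq2 or limma, and 1, HOMEZ, passed with the block. Over all genes tested, 1.75% passed on treatment alone, 24.8% with the block and 16.4% at an unadjusted p under 0.05, so 1 of 5 with the block is near the share over all genes. The other tested entry, the transporter gene SLC22A17, had a log2 fold change of -0.23 (SE 0.252, adjusted p = 0.718), and EFS, C14orf164, RNU6-1046P, RP11-124D2.3, RP11-124D2.7 and AL049829.1 had at most 2 counts. The library kit marks strand, but whether the counting used it is not given in the sources used here.

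**Figure D2:**
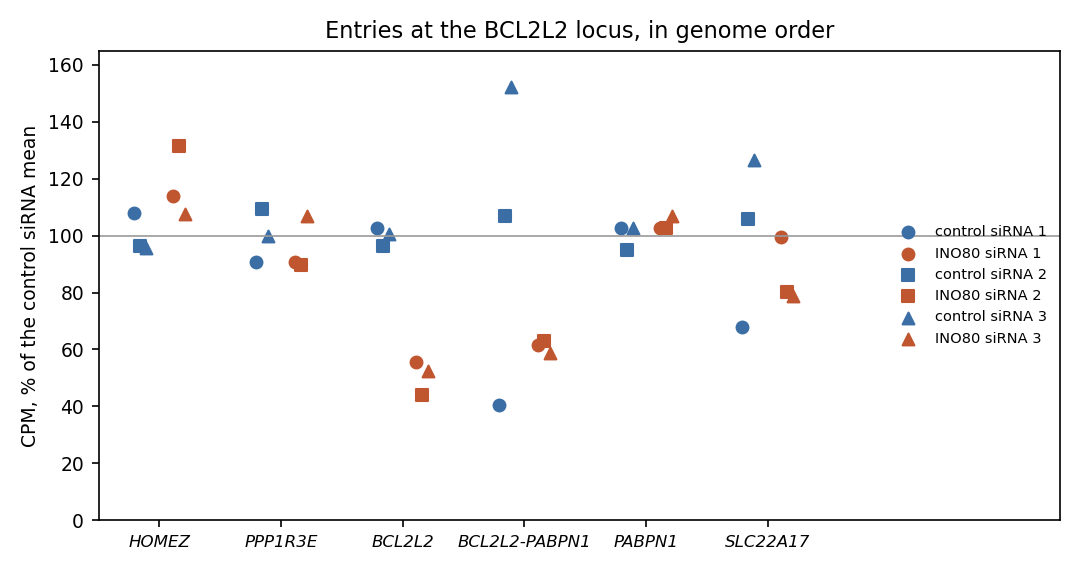
CPM of the 6 tested entries in and around the BCL2L2 locus, in genome order, as a percent of each entry's mean in the control siRNA libraries (blue, control siRNA; orange, INO80 siRNA; marker shapes, replicate number). BCL2L2 lies between 43.8% and 55.6% in the 3 INO80 siRNA libraries, while PABPN1 lies between 102.5% and 106.8%. The read-through entry BCL2L2-PABPN1 is spread from 40.6% to 152.4% within the control siRNA libraries.

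BCL2L1, which encodes BCL-XL, and MCL1, a short-lived protein that holds BAK1 and NOXA, were the most abundant members. BCL2L1 (ENSG00000171552, chr20:30252255-30311792, minus strand, GRCh37) was at 273.7, 263.2 and 249.3 CPM under control siRNA against 317.1, 277.4 and 268.6 CPM after INO80 siRNA. The groups overlapped, since INO80 siRNA replicate 3 lay below control replicate 1. Its log2 fold change was 0.13 (SE 0.0753, 95% interval -0.038 to 0.31) and did not pass the test (edgeR adjusted p = 0.430), but with the replicate block it rose by 0.13 (SE 0.0357, adjusted p = 0.0076). Without both replicate 1 libraries the log2 fold change was 0.09 (adjusted p = 0.397, with the block 0.0199). MCL1 (ENSG00000143384, chr1:150547032-150552066, minus strand, GRCh37) was at 313.2, 315.8 and 315.3 CPM against 335.3, 340.2 and 343.9 CPM. Here the groups did not overlap, with a mean 1.08 times the control mean. The log2 fold change was 0.11 (SE 0.0493, 95% interval -0.0021 to 0.22, adjusted p = 0.316), and with the block MCL1 rose by 0.11 (SE 0.0332, adjusted p = 0.0154). Without both replicate 1 libraries it was also 0.11 (adjusted p = 0.217, with the block 0.000934). That last value leans on the spread pooled over genes and is not stronger evidence than the blocked fit on all libraries.

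BCL2 encodes the founding member of the family. The gene (ENSG00000171791, chr18:60790579-60987361, minus strand, GRCh37) was at 33.5, 49.7 and 40.4 CPM under control siRNA against 41.5, 59.8 and 52.1 CPM after INO80 siRNA. In both groups replicate 1 was the lowest and replicate 2 the highest, and the groups overlapped. The log2 fold change of 0.31 had an SE of 0.164 in the fit on treatment alone (95% interval -0.063 to 0.69, edgeR adjusted p = 0.400). Within the replicate pairs the log2 ratios were 0.31, 0.27 and 0.37, and with the replicate block BCL2 rose by 0.31 (SE 0.0537, adjusted p = 8.36e-05). Without both replicate 1 libraries the value was 0.31 (adjusted p = 0.173, with the block 1.20e-06). Here too the blocked p-value leans on the spread pooled over genes and is not stronger evidence than that on all libraries. The control libraries varied by 19.7% (SD over mean) against a counting error of 3.66%.

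BCL2A1, an NF-kB target best known in blood cells, was close to the limit of detection. The gene (ENSG00000140379, chr15:80253231-80263788, minus strand, GRCh37) had 9, 8 and 15 counts under control siRNA and 8, 12 and 10 under INO80 siRNA. The 95% Poisson intervals, which cover counting error only, ran from 3.45 to 15.8 for 8 counts and from 8.40 to 24.7 for 15 counts, so no library could be told from another on this basis. The log2 fold change of -0.38 (SE 0.384, 95% interval -1.26 to 0.50) did not pass the test (edgeR adjusted p = 0.686, with the replicate block 0.612). Without both replicate 1 libraries it was -0.35 (adjusted p = 0.765, with the block -0.34 and 0.741). With so few counts this interval is wide, and changes within it could not be told apart at this depth.

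Of the 4 members other than BCL2L2, 0 passed the test in the fit on treatment alone, where 0.261% of all genes tested were called higher and 1.49% lower. None of the 4 had an unadjusted p under 0.05 in edgeR (0 genes), and DESeq2 and limma called 0. With the replicate block 3 of the 4, BCL2L1, MCL1 and BCL2, were called higher, where 11.4% of all genes were called higher and 13.4% lower. MCL1 was the only one of the 4 without overlap between the groups, and it was higher; over all genes tested, 11.3% were higher and 11.5% lower without overlap. Over all genes tested, the median log2 fold change was 0.0066. No statement in the labels says that replicates came from separate cultures, so the p-values measure the spread between these samples, which may be technical.

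**Figure D3:**
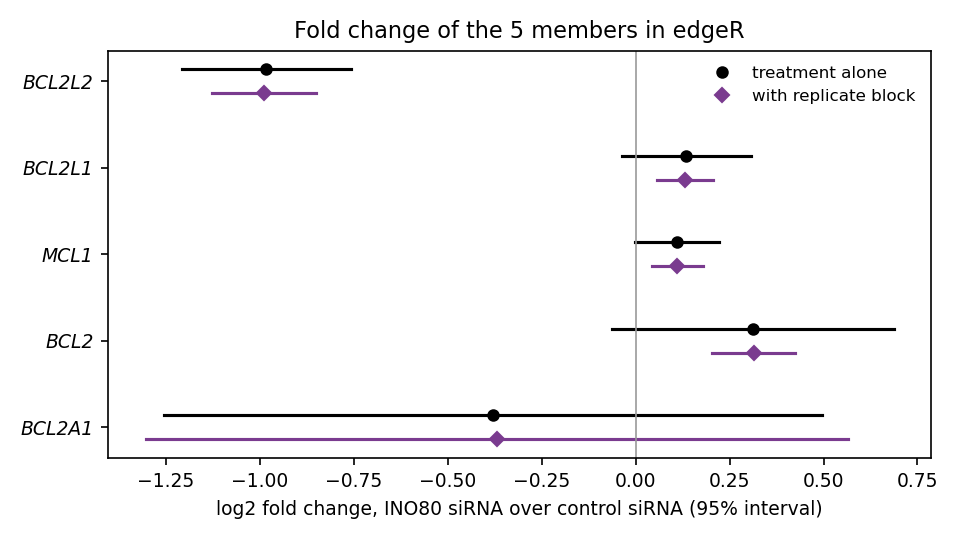
Log2 fold change of each member, INO80 siRNA over control siRNA, with its 95% interval, in edgeR on treatment alone (black circles) and with the replicate number as a block (purple diamonds). Intervals of BCL2L1, MCL1 and BCL2 reach across 0 in the first fit and lie above 0 in the second, and BCL2A1 spans 0 in both. BCL2L2, chosen on this contrast, lies at -0.98 and -0.99, and its intervals take no account of that choice.

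Levels of different genes were compared per length, in FPKM. Under control siRNA the order was BCL2L1 at 78.7 ± 2.60, MCL1 at 74.3 ± 1.69, BCL2L2 at 9.25 ± 0.212, BCL2 at 5.36 ± 1.13 and BCL2A1 at 0.523 ± 0.182 FPKM (SD, n = 3). The ranges of neighbours in this order did not overlap, although those of BCL2L1 (75.7 to 80.5) and MCL1 (72.3 to 75.3) lay close together. Under INO80 siRNA, BCL2L1 was at 86.9 ± 5.46 and MCL1 at 80.8 ± 3.05 FPKM and their ranges overlapped. BCL2 at 6.71 ± 1.34 FPKM lay above BCL2L2 at 4.71 ± 0.492, with no overlap of their ranges (5.27 to 7.93 against 4.14 to 5.02). This change of order is seen per length only and rests on BCL2L2, which was chosen for its lower value. In CPM, which is not divided by length, MCL1 (313.2 to 315.8) lay above BCL2L1 (249.3 to 273.7) under control siRNA, without overlap. The order of these genes therefore depends on the division by length. The control siRNA means in CPM were 41.2 for BCL2 and 38.9 for BCL2L2. Their control ranges overlapped (33.5 to 49.7 against 37.5 to 40.0), so no order is read from them. BCL2A1 was at 0.403 ± 0.0513 FPKM.

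BCL2L2 made up 5.50 ± 0.209% of the summed FPKM of the 5 members under control siRNA and 2.62 ± 0.275% under INO80 siRNA. The share of BCL2L1 was 46.8 ± 1.36% against 48.4 ± 2.65%, that of MCL1 44.2 ± 0.945% against 45.0 ± 2.06%, that of BCL2 3.18 ± 0.629% against 3.74 ± 0.764% and that of BCL2A1 0.312 ± 0.112% against 0.225 ± 0.029%. The sum was 168.1 ± 2.60 FPKM under control siRNA and 179.5 ± 1.55 FPKM under INO80 siRNA, and its ranges, 166.4 to 171.1 and 177.9 to 181.0, did not overlap. Most of the sum therefore came from BCL2L1 and MCL1 in both groups.

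The genes most like BCL2L2 over the 6 libraries, by Pearson r of log2 CPM among genes tested, were EMC1 (r = 0.999), PFDN4 (0.996), AC013394.2 (0.994), CUL5 (0.994) and ARMCX4 (0.992). With 6 libraries in which 3 share a treatment, these values chiefly rank genes that were lower in the same 3 libraries, and they are given as a description. CUL5, a cullin scaffold of ubiquitin ligases, had a log2 fold change of -0.59, and EMC1, a subunit of the endoplasmic reticulum membrane complex, one of -0.18.

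The nearest tested gene on each side of each member gave 10 genes. In edgeR 0 of the 10 passed the test on treatment alone and 3 had an unadjusted p under 0.05, and DESeq2 and limma called 0. With the block 6 passed: C14orf119 (log2 fold change 0.31, beside BCL2L2), ID1 (-0.23) and TPX2 (0.14) beside BCL2L1, ENSA (0.12, beside MCL1), PHLPP1 (-0.36, beside BCL2) and ST20 (0.63, beside BCL2A1). Over all genes tested these shares were 1.75% on treatment alone, 16.4% at an unadjusted p under 0.05 and 24.8% with the block. PABPN1 beside BCL2L2, ADAMTSL4 beside MCL1, KDSR beside BCL2 and ZFAND6 beside BCL2A1 passed in neither fit. The entries that overlap BCL2L1 and BCL2 had at most 4 counts, and MCL1 and BCL2A1 overlap no other entry.

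A 7-base sequence, AACGGCA, was looked up in the transcripts because an earlier pass over these libraries had picked it out of all such words in 3' UTRs from the fold changes of the genes that hold it. That choice used the same contrast, so what follows is a description. On the transcript strand, AACGGCA occurs in 4 of 9 coding transcripts of BCL2L2, each time in the 3' UTR, and in 0 coding transcripts of BCL2L1 (of 13), MCL1 (of 5), BCL2 (of 5), BCL2A1 (of 3), BCL2L2-PABPN1 (of 3) and PABPN1 (of 5). The 3' UTRs of the canonical transcripts of MCL1 (2817 bases) and BCL2 (5279 bases) are longer than that of BCL2L2 (2786 bases). In BCL2L2-201 the match lies in exon 4 at chr14:23311575-23311581 (GRCh38, plus strand), 2610 bases into the 3' UTR and 170 bases before the transcript's end. The read-through transcripts lack this exon. The site is shown with its surroundings, the match in capitals.
BCL2L2 3' UTR site: taaaatcataaAACGGCAgaacagatttgg

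Of 12617 tested genes with an annotated 3' UTR in the canonical transcript, 228 (1.81%) hold AACGGCA there on the transcript strand, and 422 (3.35%) hold its reverse complement, which occurs in 0 of the 5 members. Genes with the match had a median log2 fold change of -0.10, against 0.01 for the 12389 without it, 71.1% against 47.6% were below 0, and 27 (11.8%) against 196 (1.58%) were called lower by edgeR. BCL2L2, at -0.98 and chosen for its lower value, was among the 7 of 228 genes with the match at or below its own fold change. Of the 12389 genes without the match, 41 were as low. The 3' UTRs with the match were longer, with a median of 3139 bases against 1324. Among the 4597 genes whose 3' UTR has 2000 bases or more, 160 (3.48%) hold it, with a median log2 fold change of -0.10 against -0.01 for the 4437 others, and 18 (11.3%) against 88 (1.98%) were called lower. CUL5, one of the genes most like BCL2L2, holds the match, and EMC1, PFDN4 and ARMCX4 do not. Because the 7-base sequence was picked on this same contrast, these differences, also those among long 3' UTRs, are a description and no separate support. The part of this match in the BCL2L2 difference was not tested.

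**Figure D4:**
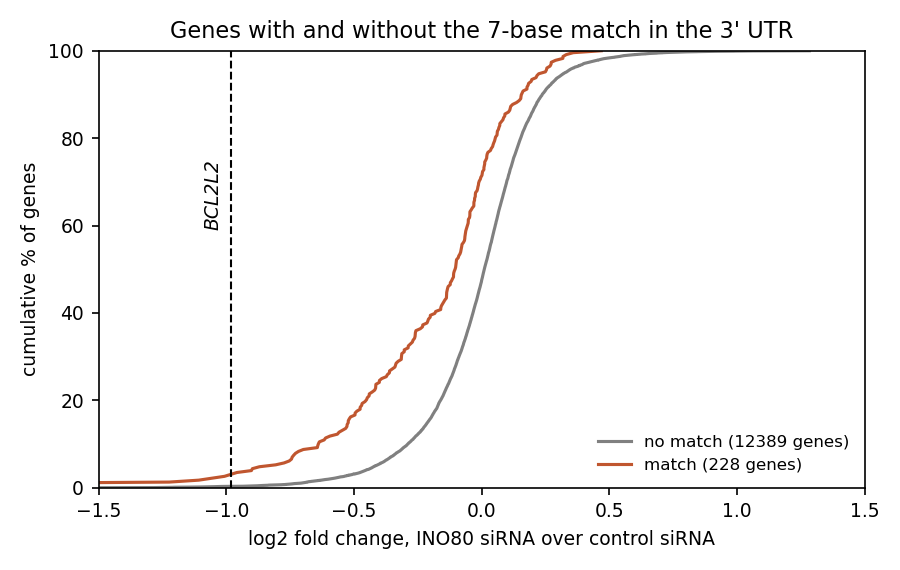
Cumulative share of tested genes (percent, vertical axis) at or below each log2 fold change, INO80 siRNA over control siRNA (horizontal axis), for the 228 genes with the 7-base match in the 3' UTR (orange) and the 12389 without it (grey). The orange line lies to the left, with medians of -0.10 and 0.01, and the dashed line marks BCL2L2 at -0.98. The 7-base sequence was picked on these same libraries.

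The proteins that meet the anti-apoptotic members were followed with 8 lists of 51 genes. Of these, 50 were matched by symbol, and 46 of the matched genes passed the filter. MARCH5, whose symbol reads as a date, was missed in the match. HRK, BCL2L10, BCL2L14 and BCL2L15 had at most 11 counts. In the fit on treatment alone, 1 of the 46 was called higher and 0 lower by edgeR, against the 0.261% and 1.49% of all genes, and 8 were higher and 5 lower at an unadjusted p under 0.05, against 7.18% and 9.2% of all genes. DESeq2 called 1 higher and 1 lower, and limma called 0. In edgeR with the block 13 were called higher and 9 lower, against 11.4% and 13.4%. The median log2 fold change of the 46 was 0.02, beside 0.0066 over all genes. The gene called in the fit on treatment alone was STAT3, a transcription factor known to act at the promoters of BCL2L1 and MCL1, which rose from 122.7 ± 0.801 to 152.5 ± 3.74 CPM (log2 fold change 0.31, SE 0.0519, adjusted p = 0.0299). Its call was lost when any of the 6 libraries was left out.

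**Figure D5:**
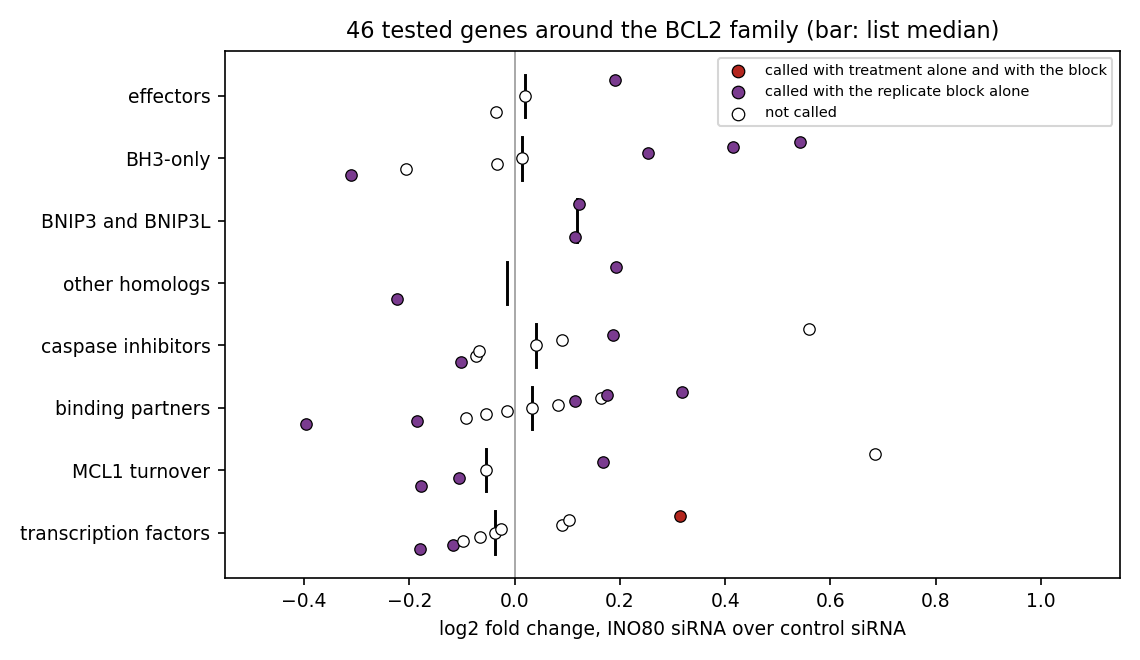
Log2 fold change (horizontal axis), INO80 siRNA over control siRNA, of the 46 list genes matched by symbol and tested, 1 row for each of 8 lists. Points are genes, red where called on treatment alone and with the replicate block (STAT3), purple where called with the block alone, white where called in neither, and the black bar is the list's median. The list medians lie between -0.05 and 0.12.

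Among the partners that the members hold, BAK1, a pore-forming effector, rose with the block (log2 fold change 0.19, adjusted p = 0.0073), while BAX was at -0.04 and BOK at 0.02. Of the BH3-only genes tested, BBC3 (0.55), BMF (0.41) and BCL2L11 (0.26) rose and PMAIP1 fell by 0.31 with the block, and in the fit on treatment alone 0 of the 7 passed in edgeR, with 3 at an unadjusted p under 0.05 (16.4% over all genes) and 0 called by DESeq2 or limma. Over all genes tested, 11.4% were called higher and 13.4% lower with the block. Effectors had a median of 0.02 and BH3-only genes one of 0.01. BNIP3 (0.11) and BNIP3L (0.12), which act in mitophagy, rose with the block. Of the more distant homologs tested, BCL2L12 rose (0.19) and BCL2L13 fell by 0.22 with the block.

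Of the 7 genes in the list named caspase inhibitors, BIRC3 rose (0.19) and CFLAR, which blocks caspase-8, fell by 0.11 with the block. XIAP was at -0.07 and BIRC5 at 0.04. Of the 11 binding partners of BCL2-family proteins, 3 rose with the block: the co-chaperone gene BAG1 (0.32), FKBP8 (0.17), which anchors BCL2 to mitochondria, and TMBIM6 (0.12). The IP3 receptor genes ITPR2 and ITPR3 fell by 0.39 and 0.19 with the block. The list median of the binding partners was 0.03. For comparison, the block called 11.4% of all genes tested higher and 13.4% lower.

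Of the genes that set MCL1 protein stability, 5 of 6 were matched by symbol and tested. MARCH5 was missed in that match because its symbol reads as a date, 5-Mar. That entry had a log2 fold change of 0.09 (edgeR adjusted p = 0.652, with the block 0.160). It is left out of the list counts and medians. The ubiquitin ligase gene FBXW7 rose (0.17) with the block, and the ligase gene HUWE1 and the deubiquitinase gene USP9X fell by 0.11 and 0.18 with it. BTRC was at -0.05 and TRIM17, with group means of 0.954 and 1.54 CPM, was at 0.69, and neither was called. Of the transcription factors known at the members' promoters, ETS1 and MITF fell by 0.12 and 0.18 with the block, and the NF-kB subunit genes RELA (0.09), NFKB1 (-0.07) and REL (-0.04) were not called in either fit. These lists mix genes that act for and against the same protein, and with the block 11.4% of all genes tested were called higher and 13.4% lower.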

How the data were processed

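RNA-seq libraries of 6 HK-2 samples (3 per group) were read from a deposited table of raw counts and FPKM per gene, with exonic lengths. The submitters' processing notes name HISAT2 2.0.1, HTSeq and hg19, the study's methods name ELAND and hg38, and the table's coordinates were those of hg19 (GRCh37). How the authors counted reads of overlapping genes or strand is not given in the sources used here. The FPKM deposited by the authors equalled counts divided by exon length and library total, for 347430 of 347430 values within 0.011.

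Counts were tested in edgeR 4.0.16 (R 4.3.3; filterByExpr, TMM, quasi-likelihood test on treatment alone, Benjamini-Hochberg over 15343 genes, threshold 0.05). CPM used TMM library sizes. Alternatives were the replicate block, median-ratio scaling, no filter, DESeq2 1.42.0, limma 3.58.1 on log2(FPKM + 0.1), each library left out, and, chosen after seeing the data, both replicate 1 libraries left out. Deviations from group means of libraries with the same replicate number correlated at r = 0.360 or more in each of 3 pairs, against at most 0.152 for different numbers. The pairing comes from these data and from the numbers in the labels. The scripts were tested on simulated data. Named genes were the members, INO80, entries overlapping BCL2L2 or within 50 kb, nearest tested genes, list genes called in either fit, selected pro-apoptotic genes and the 5 genes most like BCL2L2. Some list genes called in neither fit were also named, after their values were seen. Members and lists were chosen with earlier results of these data known. Sequences came from GENCODE v44 (GRCh38) transcripts.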

Additional observations from a re-analysis of the deposited data

How the results depend on the processing

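The BCL2L2 log2 fold change lay between -1.05 and -0.89 when each library was left out, and stayed at or near -0.98 under the other alternatives, from -1.04 to -0.96. The replicate block changed the calls of BCL2L1 (log2 fold change 0.13, without both replicate 1 libraries 0.087), MCL1 (0.11 and 0.11) and BCL2 (0.31 and 0.31), and changed no call of BCL2A1 or INO80. No other alternative called a member, with adjusted p from 0.389 to 0.702 for BCL2L1, 0.217 to 0.590 for MCL1, 0.0798 to 0.689 for BCL2 and 0.614 to 0.962 for BCL2A1. With a library left out, the log2 fold change of BCL2 ranged from 0.18 (without control replicate 1 or INO80 siRNA replicate 2) to 0.47 (without control replicate 2), that of BCL2L1 from 0.06 (without INO80 siRNA replicate 1) to 0.18, and that of BCL2A1 from -0.60 to -0.09 (without control replicate 2 and 3, respectively). DESeq2 gave BCL2A1 no adjusted p. INO80 stayed called, from -1.98 to -1.83.

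Genes called numbered 268, and 3798 with the replicate block, 708 with no filter, 618 in DESeq2, 3 in limma, 528 without both replicate 1 libraries and 3978 with the block as well. Those higher numbered 40, and in the same order 1748, 192, 133, 0, 90 and 1776. Those lower numbered 228, and 2050, 516, 485, 3, 438 and 2202. With a library left out they ranged from 18 to 146, of which 0 to 12 were higher and 18 to 134 lower. List genes called numbered 1, and 22, 4, 2, 0, 2 and 23, and 0 with any library left out. At an unadjusted p under 0.05, 2514 genes passed in edgeR. In CPM, not divided by length, the means of BCL2L1 against MCL1 and BCL2L2 against BCL2 changed order under control siRNA (log2 ratios of -0.26 and -0.082). The CPM ranges of BCL2L2 and BCL2 overlapped there, and those of BCL2L1 and MCL1 did not. BCL2 over BCL2A1 was 6.17.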
